A study of Homo sapiens with 4 samples.

Results

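Small H3K27me3 peaks that appeared in the AKBA list beside, but not on, a DMSO peak were examined in HaCaT keratinocytes. These flanking peaks were chosen by their measured positions and widths: a peak of the AKBA list narrower than 2000 bp, with no base in common with any DMSO peak, whose nearest DMSO peak edge lay 10 kb or less away. The rule selected 3253 of the 13155 AKBA peaks (24.7%), among 22045 peaks in both lists. HaCaT cells, an immortal human line of the main epidermal cell type, were kept for 12 hours with AKBA or with DMSO, the solvent control. AKBA is the usual short name of an acetylated boswellic acid of frankincense resin, although the labels do not write it out; its dose was not found in those labels. The series has 4 samples: an H3K27me3 library and an input DNA library from cells with AKBA, and the same pair from cells with DMSO. Input values were not analysed here. Each condition had 1 H3K27me3 library from 1 line, so differences between the lists could not be set against replicate error and were not tested.

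H3K27me3, trimethylation of lysine 27 of histone H3, is written by Polycomb repressive complex 2. A subunit of that complex, EED, binds the mark already in place and stimulates the methyltransferase EZH2 on neighbouring nucleosomes, so that the mark can extend into domains over silent developmental genes. The edge of such a domain is where a peak caller has to decide whether weak signal is part of a peak, a separate small peak or background.

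Both lists give a position, a width and a score per peak; the score is the authors' own value on a scale that was not stated, and it is compared below only between peaks of the same list. One alternative setting applied the same score minimum to both lists and so assumes a common scale. Read depth is unknown. The lists differed in grain: the narrowest peak was 214 bp with AKBA and 160 bp with DMSO, and neighbouring peaks of 1 list came no closer than 857 bp with AKBA and 641 bp with DMSO. Shares below carry exact 95% Clopper-Pearson intervals and medians carry exact binomial intervals. They cover counting error only, and they treat neighbouring peaks of 1 library as independent. Positions are on hg19.

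The flanking peaks were a large part of what the AKBA list had and the DMSO list did not. Of the AKBA peaks, 8925 (67.8%) overlapped no DMSO peak, and 36.4% of these (interval 35.4 to 37.5%) were flanking peaks by the rule. Of the 8722 unshared AKBA peaks under 2000 bp, 37.3% lay within 10 kb of a DMSO peak and 5469 lay farther away. The flanking peaks added up to 2141.8 kb, or 14.6% of the 14656.2 kb in all AKBA peaks. Another 106 unshared AKBA peaks near a DMSO peak were too wide for the rule.

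Flanking peaks crowded toward the DMSO edge. The median distance between facing edges was 2503 bp (interval 2356 to 2635), with quartiles at 1129 and 5421 bp. Distances of 1000 bp or less were found for 707 peaks (21.7%), and distances of 1001 to 2000 bp for another 707. From 5001 to 10000 bp there were 896 (27.5%), spread over a span 5 times as long as the first. Within 100 bp of the DMSO edge lay 119 flanking peaks (3.66%). These distances were limited by the rule and describe the chosen peaks.

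The closest cases were peaks that nearly touched. On chromosome 1 an AKBA peak of 1212 bp, chr1:203096308-203097519, ended on the base before a DMSO peak of 307 bp began. On chromosome 12 an AKBA peak of 536 bp, chr12:248531-249066, was 1 bp from a DMSO peak of 442 bp. On chromosome 8 an AKBA peak of 214 bp, chr8:98540958-98541171, was 3 bp from a DMSO peak of 175 bp. In all 3 cases the DMSO peak had no AKBA peak on it, so the lists marked adjacent stretches without sharing a base. This outcome was fixed by the list. AKBA peaks came no closer than 857 bp to each other, and these DMSO peaks ended within that distance of the flanking peak.

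At the other end, the limit of 10 kb cut through a continuous range. The 3 farthest flanking peaks were 9985, 9982 and 9979 bp away, on chromosomes 7, 16 and 12. The 3 nearest peaks that missed the limit were 10019, 10021 and 10028 bp away, on chromosomes 19, 7 and 19. The widest flanking peaks measured 1997, 1987 and 1980 bp, and the narrowest that missed the width limit measured 2000, 2008 and 2008 bp. One of those excluded, chr4:8868301-8870308, filled most of a gap between DMSO peaks, with 91 bp free on its lower side and 49 bp on its upper side.

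Flanking peaks were split nearly evenly between the sides. Of the flanking peaks, 1603 lay on the higher-coordinate side of their nearest DMSO peak and 1650 on the lower side, so that 49.3% were on the higher side (interval 47.5 to 51.0%). At 1000 bp or less the share on the higher side was 47.8% (interval 44.1 to 51.6%), and beyond 5000 bp it was 49.8% (46.5 to 53.1%). The median distance was 2430 bp on the higher side and 2578 bp on the lower side, with overlapping intervals. Peaks carry no strand, so a side relative to transcription was not analysed here.

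**Figure D1:**
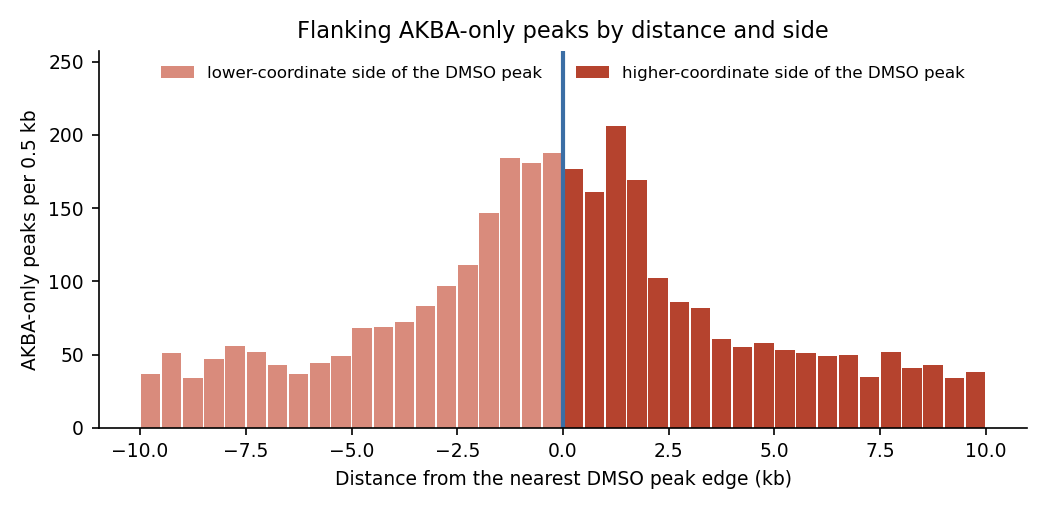
Number of flanking AKBA-only peaks (y axis) in steps of 0.5 kb of distance from the nearest DMSO peak edge (x axis, kb), with the lower-coordinate side left of 0 and the higher-coordinate side right of it. Both sides have their 4 tallest steps within 2 kb of the edge; the tallest step is the first on the lower side (188 peaks) and the step from 1000 to 1499 bp on the higher side (206 peaks).

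Sequence close to a DMSO peak is limited, so the counts were also divided by the sequence available at each distance, between the first and last DMSO peak of each chromosome. The density of unshared AKBA peaks under 2000 bp was 41.9 per Mb at 0 to 499 bp, 44.5 at 500 to 999 bp and 50.4 at 1000 to 1999 bp. It was 30.0 per Mb at 2000 to 2999 bp and 15.0 per Mb at 9000 to 10000 bp. Beyond the limit the density went on falling, to 10.9 per Mb up to 20 kb, 6.91 per Mb from 20 to 50 kb and 3.54 per Mb from 50 to 100 kb. No break in density marked the limit of 10 kb.

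The picture at the edge depended on whether the DMSO peak itself carried an AKBA peak. Beside DMSO peaks without an AKBA overlap, the density was highest at the edge, with 77.7 flanking peaks per Mb at 0 to 499 bp, 50.5 at 500 to 999 bp and 44.0 at 1000 to 1999 bp. Beside DMSO peaks with an AKBA overlap it was 11.3 per Mb at 0 to 499 bp, 38.6 at 500 to 999 bp and 56.9 at 1000 to 1999 bp. The smallest gap of 857 bp between AKBA peaks keeps a flanking peak off an edge that an AKBA peak already covers, so the low values there are partly fixed by the list. Past 2 kb the densities without and with an overlap were 29.8 and 30.2 per Mb from 2000 to 2999 bp, 21.5 and 25.8 from 3000 to 3999 bp, 19.3 and 15.5 from 7000 to 7999 bp, 16.3 and 13.5 from 8000 to 8999 bp and 14.9 and 15.1 from 9000 to 10000 bp. Neither series was the higher throughout.

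**Figure D2:**
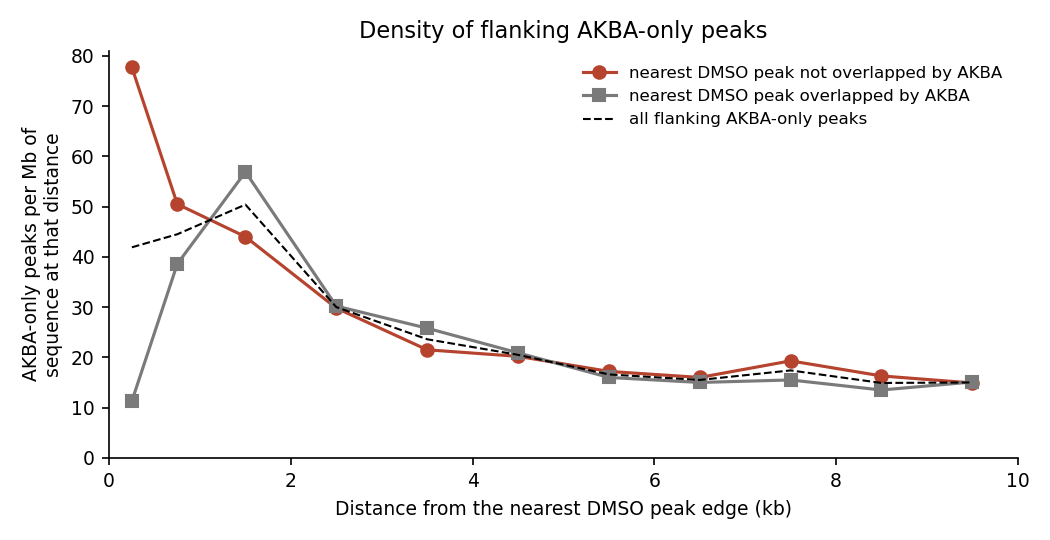
Flanking AKBA-only peaks per Mb of sequence (y axis) at each distance from the nearest DMSO peak edge (x axis, kb), for DMSO peaks without (circles) and with (squares) an AKBA overlap and for all (dashed line). The series differ most in the first step, at 77.7 per Mb without and 11.3 per Mb with an overlap, and beyond 2 kb neither is the higher throughout.

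The 3253 flanking peaks had 2568 distinct nearest DMSO peaks, which were 28.9% of the DMSO list. Their median width was 541 bp (interval 515 to 565) with quartiles at 267.8 and 931.2 bp, against 558 bp (542 to 573) with quartiles at 272.2 and 1041 bp in the 6322 other DMSO peaks. Neighbours ranged from the narrowest width of 160 bp to 10436 bp. Their median score was 2.93 (interval 2.89 to 2.96), against 3.05 (3.03 to 3.09) in the other DMSO peaks. Among DMSO peaks without an AKBA overlap, the median neighbour width was 383.5 bp counted per flanking peak (interval 364 to 404), against 352 bp (339 to 364) over all such DMSO peaks.

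Across width classes the intervals of the share of DMSO peaks with a flanking peak overlapped. The share was 30.3% at the narrowest width (interval 27 to 33.7%), 29.9% from 501 to 1000 bp (28.2 to 31.8%), 26.9% from 1001 to 2000 bp (24.6 to 29.3%) and 26.2% from 2001 to 5000 bp (23.1 to 29.4%). Above 5000 bp it was 21.4%, or 15 of 70 peaks, with an interval of 12.5 to 32.9%. Without an overlap the share was 29.9% at the narrowest width, 36.6% from 501 to 1000 bp and 43.2% from 1001 to 2000 bp (interval 35.0 to 51.6%, 63 of 146 peaks). With an overlap it stayed between 21.4% and 25.9% in the classes above 160 bp and was 31.7% at 160 bp (interval 24.6 to 39.5%). The median distance was 2962 bp over 291 flanking peaks beside the narrowest DMSO peaks and 2436 bp beside those of 501 to 1000 bp. It was 2181 bp beside those of 1001 to 2000 bp and 2576 bp beside those of 2001 to 5000 bp. Above 5000 bp it was 1602.5 bp, over only 18 flanking peaks. The medians did not fall steadily with width.

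**Figure D3:**
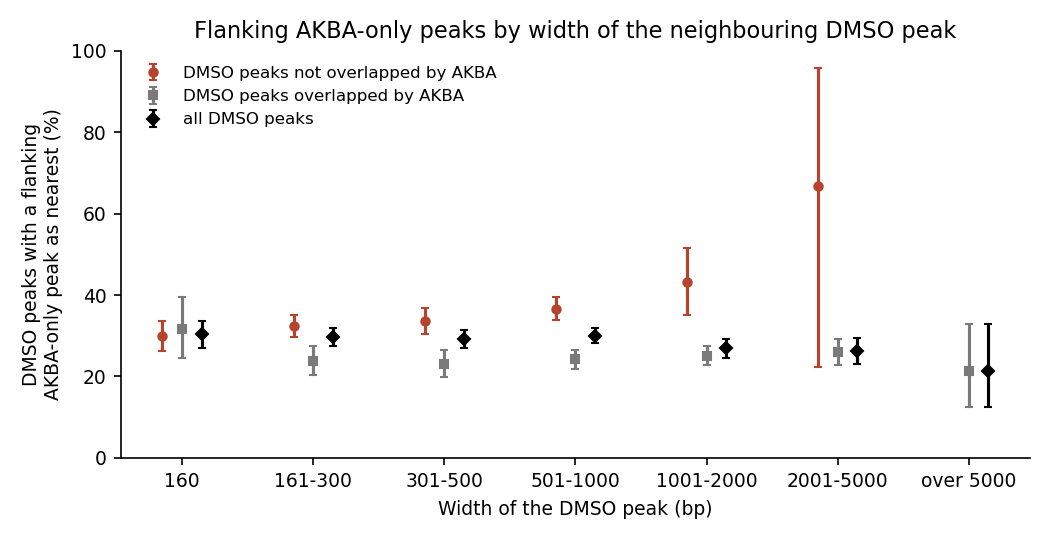
Share of DMSO peaks that were the nearest of at least 1 flanking AKBA-only peak (y axis, %) by width of the DMSO peak (x axis, bp), with exact 95% binomial intervals for counting error. The share over all DMSO peaks is between 21.4% and 30.3%, and among DMSO peaks without an AKBA overlap it is 29.9% at 160 bp and 43.2% at 1001 to 2000 bp; the class from 2001 to 5000 bp without an overlap has 6 peaks.

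Neighbours were less often marked in both lists than other DMSO peaks. An AKBA peak overlapped 1196 of the 2568 neighbours (46.6%, interval 44.6 to 48.5%), against 57.8% (56.6 to 59.0%) of the other DMSO peaks and 54.5% of the whole DMSO list. The share was lower in neighbours than in other DMSO peaks, with separate intervals, under each of the 10 alternative settings. The smallest gap of 857 bp between AKBA peaks keeps flanking peaks off covered edges, so this lower share is partly fixed by the list. Every setting kept that gap. With flanking peaks at 1 kb or less from a DMSO peak left uncounted, the shares were 50.2% in neighbours and 55.9% in other DMSO peaks. DMSO peaks left without a counted flanking peak then joined the other DMSO peaks, so part of the change comes from that move. Counted from the other side, 34.0% of DMSO peaks without an AKBA overlap had a flanking peak (interval 32.5 to 35.4%), against 24.7% of those with one (23.5 to 25.9%). Counted per flanking peak, the share with an overlapped neighbour was 14.8% at 500 bp or less and 44.0% from 501 to 1000 bp. It was 55.9% from 1001 to 2000 bp, and between 43.6% and 53.4% in each further kb. An AKBA peak that took up the flank and joined the peak on the neighbour would no longer be counted, so overlap of the neighbour and presence of a flank are not independent.

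Flanking peaks thus fell into a group beside shared DMSO peaks and a group beside DMSO peaks that the AKBA list lacked. The first held 1491 peaks (45.8%). On the neighbour of these, the AKBA peak reached past the DMSO edge facing the flanking peak in 878 cases (58.9%), and it ended at or inside that edge in the others. The reach past the edge had a median of 76 bp over all 1491, with quartiles at -171 and 453.5 bp. A further median gap of 2392 bp separated that AKBA peak from the flanking peak. Counted per flanking peak, the neighbours of this group had a median width of 837 bp. All overlapped DMSO peaks, each counted once, had a median of 847 bp.

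The second group held 1762 flanking peaks beside 1372 DMSO peaks without an AKBA overlap, where the lists marked alternate stretches. Of all flanking peaks, 1257 (38.6%) were in turn the nearest AKBA peak of such a DMSO peak and so formed a reciprocal pair. The AKBA member of these pairs had a median width of 600 bp and the DMSO member 380 bp, and the AKBA peak was the wider in 865 pairs (68.8%). The widths are not on a common footing, since the shortest peaks measure 214 bp with AKBA and 160 bp with DMSO. The median distance within a pair was 1531 bp (interval 1361 to 1659).

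The same rule with the lists exchanged found 2237 DMSO peaks beside AKBA peaks, 25.2% of the DMSO list, against 24.7% for the flanking peaks in the AKBA list. They made up 55.4% of the 4035 unshared DMSO peaks under 2000 bp (interval 53.9 to 57.0%), against 37.3% (36.3 to 38.3%) for the flanking AKBA peaks. The AKBA list has more peaks to lie beside, 13155 against 8890. The reversed set lay closer, at a median of 1681 bp (interval 1582 to 1795) against 2503 bp for the flanking AKBA peaks, and 34.7% of it lay at 1000 bp or less, against 21.7%. Of the reversed set, 1368 peaks (61.2%) were the nearest DMSO peak of a flanking AKBA peak. Small unshared peaks next to a peak of the other list were therefore found in both directions and were not limited to the AKBA list.

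Most flanking peaks had a DMSO peak on 1 side only. A DMSO peak lay within 10 kb on both sides of 608 flanking peaks (18.7%, interval 17.4 to 20.1%). The gap between the DMSO peaks around them had a median of 8274 bp, and the flanking peak was 1646 bp from the nearer and 5508 bp from the farther one at the median. Both of these DMSO peaks were overlapped by AKBA peaks in 166 cases, 1 of them in 253 and neither in 189. For the 2645 with a DMSO peak on 1 side, the next one on the other side was a median of 66768 bp away, over the 2633 that had one on the chromosome. The highest-scoring flanking peak between DMSO peaks was chr9:136557721-136558787, of 1067 bp with a score of 7.55, set 5261 bp from the DMSO peak below it and 7362 bp from the one above.

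Flanking peaks had AKBA company. The nearest other AKBA peak was a median of 3294 bp away (interval 3077 to 3461), against 22158 bp (20459 to 23224) for the unshared AKBA peaks under 2000 bp that were farther than 10 kb from a DMSO peak. Another AKBA peak lay within 10 kb of 2556 flanking peaks (78.6%), against 29.8% of the farther ones. These contrasts are partly fixed by the rule. A DMSO peak with an AKBA overlap lay within 10 kb of 1836 flanking peaks (56.4%). The farther ones by definition had no DMSO peak within 10 kb. For 1374 flanking peaks (42.2%) an AKBA peak was nearer than the DMSO peak. There were 654 flanking peaks (20.1%) with no other AKBA peak within 10 kb and a DMSO peak on 1 side only, and in 648 of these the DMSO peak had no AKBA overlap. The other 6 had an AKBA peak on the DMSO peak that lay more than 10 kb from the flanking peak. The 648 largely follow from this choice. An AKBA peak on the DMSO peak would mostly lie within 10 kb as well. Being near a DMSO peak and near other AKBA peaks go together where peaks are dense, and the part of each was not tested.

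In width and score, flanking peaks stood slightly above unshared peaks farther away and well below shared ones. Their median width was 577 bp (interval 555 to 597), against 521 bp (508 to 537) in the farther unshared AKBA peaks and 1006.5 bp (977 to 1027) in shared AKBA peaks under 2000 bp. Shared peaks were sorted by overlap, which a wider peak meets more readily. The width contrast with them is therefore partly fixed by the rule. Their median score was 2.80 (interval 2.78 to 2.83), against 2.68 (2.66 to 2.70) in the farther and 3.50 (3.44 to 3.57) in the shared peaks. A score of at least 3 was reached by 39.2% of flanking peaks, 33.2% of the farther and 68.5% of the shared peaks, against 49.6% of all AKBA peaks. At the narrowest width of 214 bp were 9.10% of flanking peaks, 12.1% of the farther and 2.09% of the shared peaks. By distance, the median score of flanking peaks was 2.94 at 1000 bp or less and 2.71 from 5001 to 10000 bp, and the median widths were 608 and 567.5 bp. Flanking peaks made up 2 of the 100 highest-scoring AKBA peaks, against 24.7% of all AKBA peaks. Those 100 were drawn from AKBA peaks of any width, including peaks of 2000 bp or more that the rule leaves out.

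The highest-scoring flanking peaks were short. The first, chr2:241771088-241771423, had a score of 8.85 and a width of 336 bp and lay 7526 bp above a DMSO peak of 529 bp that an AKBA peak overlapped. The second, chr2:1746865-1747125, had a score of 8.35 and a width of 261 bp and lay 1293 bp below a DMSO peak of 274 bp. The third, chr11:88798673-88798997, had a score of 8.05 and a width of 325 bp and lay 1372 bp above a DMSO peak of 165 bp. The DMSO peaks beside the second and the third had no AKBA overlap, and all 3 DMSO peaks scored between 2.16 and 2.85 in their own list.

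Most neighbours had a single flanking peak. There were 1996 DMSO peaks with 1, 475 with 2, 84 with 3, 10 with 4 and 3 with 5. Of the 475 with 2, the flanking peaks lay on opposite sides in 206 (43.4%, interval 38.9 to 48.0%) and on the same side in the rest. In all, 269 DMSO peaks had flanking peaks on both sides.

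The 3 DMSO peaks with 5 flanking peaks measured 735, 789 and 267 bp, against a median of 552.5 bp in the DMSO list. On chromosome 2 the DMSO peak chr2:881881-882615 had flanking peaks at 3852, 2324 and 1020 bp on its lower side and at 1297 and 5729 bp on its upper side, with widths from 394 to 853 bp, and no AKBA peak on it. On chromosome 16 the DMSO peak chr16:49465009-49465797 was partly covered by an AKBA peak of 2515 bp, and its flanking peaks lay at 9507 and 7778 bp on the lower side and at 560, 6132 and 8112 bp on the upper side. On chromosome 20 the DMSO peak chr20:57899719-57899985, of 267 bp, had flanking peaks at 3428 and 146 bp on the lower side and at 1272, 4371 and 6092 bp on the upper side, with widths from 576 to 1267 bp. Each of the 5 on chromosome 20 was wider than the DMSO peak. Scores of the 15 flanking peaks ran from 2.16 to 4.76.

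**Figure D4:**
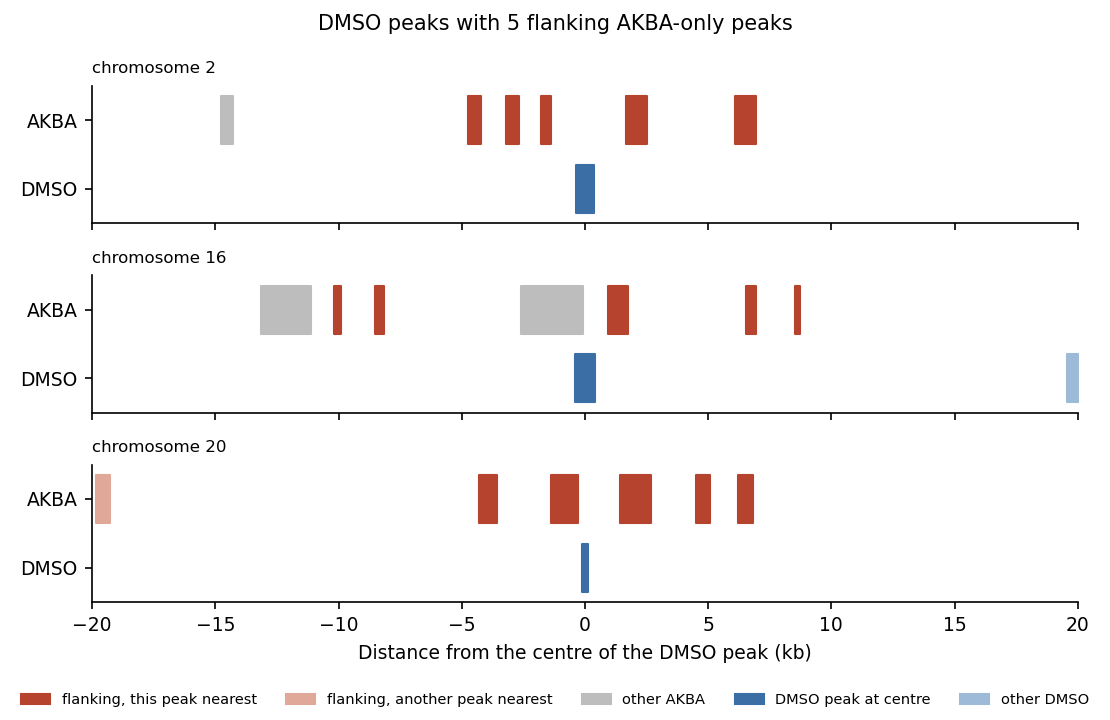
Maps of the 3 DMSO peaks with 5 flanking AKBA-only peaks, with peaks of the AKBA list above and of the DMSO list below, by distance from the centre of the DMSO peak (x axis, kb). The flanking peaks lie on both sides of the DMSO peak in each map, and only the DMSO peak on chromosome 16 is overlapped by an AKBA peak.

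The 3 widest DMSO peaks with a flanking peak were broad domains that both lists marked. The files name no genes; from general knowledge of human genome maps the 3 peaks lie at PAX6 on chromosome 11, EBF2 on chromosome 8 and PAX2 on chromosome 10. PAX6 is a paired-box factor of eye and brain development, EBF2 is an early B-cell factor family member of brown fat and neural development, and PAX2 is a paired-box factor of kidney development. The gene table at hand, of assembly GRCh38.p14, places each gene on the same chromosome and was used for nothing else.

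At PAX6 the DMSO peak spanned 10436 bp without a break, chr11:31830394-31840829, while the AKBA list had peaks of 5591 and 2118 bp on it. The flanking peak chr11:31841370-31842175, of 806 bp, lay 540 bp past its upper edge with a score of 2.73, and the next DMSO peak began 2973 bp farther on. At EBF2 the DMSO peak of 8957 bp, chr8:25896733-25905689, was matched by an AKBA peak of 8832 bp, and 2 flanking peaks lay 1912 and 6855 bp below it, with widths of 660 and 712 bp and scores of 2.33 and 2.15. At PAX2 the DMSO peak of 8286 bp, chr10:102505425-102513710, was covered in part by AKBA peaks of 9869 and 4725 bp. The flanking peak chr10:102514472-102514845, of 374 bp with a score of 4.44, lay 761 bp past its upper edge. In all 3 places the AKBA peak on the domain stopped short of the DMSO edge that faced the flanking peak. At PAX6 and PAX2 this was fixed by the list, since AKBA peaks came no closer than 857 bp to each other. Over all 1491 flanking peaks beside overlapped DMSO peaks, the AKBA peak reached past the facing edge in 58.9%.

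**Figure D5:**
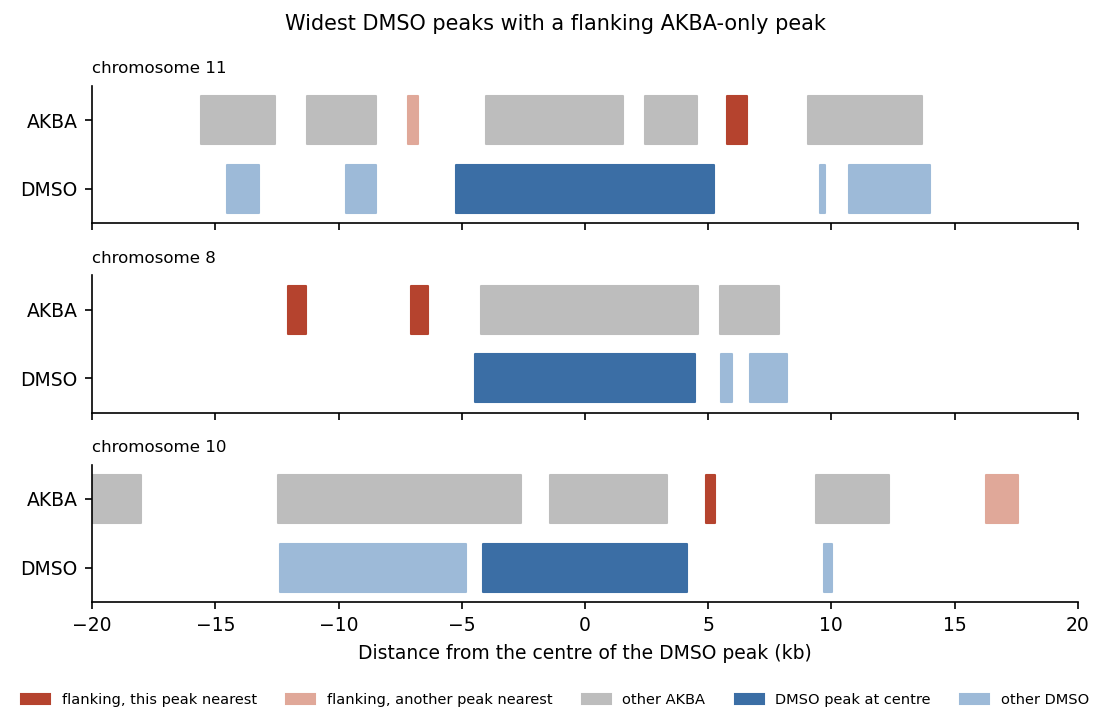
Maps of the 3 widest DMSO peaks with a flanking AKBA-only peak, at PAX6 (chromosome 11), EBF2 (chromosome 8) and PAX2 (chromosome 10), with peaks of the AKBA list above and of the DMSO list below, by distance from the centre of the DMSO peak (x axis, kb). The DMSO peaks of 10436, 8957 and 8286 bp carry AKBA peaks, and the flanking peaks lie 540, 1912 and 6855, and 761 bp outside them.

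Flanking peaks were found on all 23 chromosomes with peaks. They made up 32.3% of the AKBA peaks of chromosome 20 (interval 29.0 to 35.9%), 29.9% on chromosome 14 (26.2 to 33.9%) and 28.3% on chromosome 9 (25.2 to 31.5%), against 24.7% over all AKBA peaks. The lowest shares were 13.3% on chromosome X (8.42 to 19.6%) and 17.8% on chromosome 4 (13.4 to 22.9%). The interval of 16 chromosomes included the overall share, and it lay above for 3 and below for 4. The DMSO list had 7.69 peaks per Mb on chromosome 20, 1.13 on chromosome 4 and 0.825 on chromosome X. It had 4.47 per Mb on chromosome 14 and 6.11 on chromosome 17, where the share was 27% (23.8 to 30.5%). The intervals of the shares on chromosomes 14 and 17 overlapped. The part of DMSO density was not tested. Per 100 DMSO peaks there were 49.3 flanking peaks on chromosome 20, 22.3 on chromosome 4 and 17.2 on chromosome X.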

How the data were processed

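Per the labels, chromatin of HaCaT cells was crosslinked and sonicated and H3K27me3 was precipitated; per the submitters' processing notes, reads were handled on hg19 with tools listed as MACS2, BWA and STAR, no versions given. Peaks were called per library. Threshold, input use and duplicate handling are not given in those notes or labels. The authors deposited 1 score per peak, on a scale that is not stated.

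Distances are the bases between facing edges. Overlap meant at least 1 bp. Tools were scipy 1.17.1, pandas 2.3.3 and numpy 2.4.6 under Python 3.11.15. The 3253 members were also counted with bedtools 2.31.1, and overlap, distance and side were checked on 600 simulated peaks, of which 600 equalled a direct comparison. The flanking peaks, the settings and the regions named were chosen with earlier results of these data known. Regions were named by rule: highest scores, smallest and greatest distances, values at each limit, most members per DMSO peak, widest neighbours and the highest score between DMSO peaks; the gene names were added after the regions were seen. No test was made, because each condition has 1 library. No hg19 sequence or annotation was used here.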

Additional observations from a re-analysis of the deposited data

How the results depend on the processing

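The share on the higher-coordinate side stayed between 46.3% and 49.7% under the 10 alternatives computed for it, and the interval of 9 of them included 50%. The exception used only DMSO peaks of at least 1 kb as neighbours, which gave 46.3%, 1068 members, a median distance of 3276.5 bp, a neighbour width of 1666 bp, 90.3% of neighbours overlapped by AKBA and 35.3% of DMSO peaks with a member; of all DMSO peaks that wide, 93.2% were overlapped. With a score of at least 3 in both lists there were 941 members, a neighbour width of 657 bp, 52.1% overlapped neighbours and 18.1% of DMSO peaks with a member. With as many AKBA as DMSO peaks by score there were 1971 members at a median of 2190 bp, 41.3% overlapped neighbours and 19.1% of DMSO peaks with a member. The limits of 5 and 20 kb set the median distance to 1611 and 4162 bp and the DMSO peaks with a member to 22.8% and 34.5%. Widths under 1000 bp gave 24.4% of DMSO peaks with a member. Without peaks at the narrowest width the values were 594.5 bp for neighbour width, 48.8% overlapped neighbours and 27.4% with a member. Leaving flanking peaks at 1 kb or less uncounted gave a median of 3525.5 bp, 50.2% and 23.4%. Joining peaks across 1 kb gave 2705 bp for distance and 573 bp for neighbour width. The other 34 of 61 values stayed within the interval of the value reported, or within 1.5 times for counts. Neighbours were overlapped less often than other DMSO peaks in all 10 settings. The difference was smallest with DMSO peaks of at least 1 kb as neighbours, at 90.3% against 94.8%. With flanking peaks at 1 kb or less left uncounted, the shares were 50.2% and 55.9%. Every setting kept AKBA peaks at least 857 bp apart, so the settings do not remove that limit. The settings change the members or the lists themselves, and no further cause was tested. Every value rests on 1 library per condition of unknown depth. No paired analysis was possible because each condition has 1 library.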

Other observations

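The flanking peaks fell in 976 windows of 1 Mb, of which 390 held 1 flanking peak and 199 held 5 or more. These 199 windows held 1846 flanking peaks, or 56.7% of all flanking peaks; the same share was not computed for other peaks. The most were on chromosome 20 between 57 and 58 Mb, with 31 flanking peaks among 55 AKBA and 42 DMSO peaks. It was followed by chromosome 16 between 86 and 87 Mb, with 30 among 76 AKBA and 51 DMSO peaks, and by chromosome 9 between 137 and 138 Mb, with 28 among 56 AKBA and 44 DMSO peaks. On chromosome 16 between 82 and 83 Mb, 22 of 38 AKBA peaks were flanking peaks of 19 DMSO peaks. These windows were named after their values were seen.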
